A study of Mus musculus with 3 samples.

Results

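Rbm3 and Cirbp, the 2 cold-inducible RNA-binding genes of this mouse retina series, were followed across cell classes and libraries; they are 2 of the 18545 genes in the deposited matrix. The pair was chosen by values already measured in these same libraries, so every level and ratio below is a description and carries no test. Rbm3 (gene ID 19652) lies on the minus strand of chromosome X, chrX:8138975-8145880, and Cirbp (gene ID 12696) lies on the plus strand of chromosome 10, chr10:80165990-80172786, in the RefSeq annotation of GRCm38.p6, the assembly that the name mm10 stands for. The annotated antisense gene Rbm3os overlaps Rbm3 by 454 bases and held only 8, 20 and 13 UMIs in the WT, rd10-vehicle and rd10-TMB libraries. A UMI, or unique molecular identifier, marks 1 captured RNA molecule.

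Both genes encode small proteins with 1 RNA recognition motif and a glycine-rich tail, and both transcripts accumulate when mammalian cells are cooled mildly. RBM3 supports translation and synapse maintenance in cooled neurons, where reticulon 3, the product of Rtn3, acts downstream of it and TrkB signalling upstream. CIRBP binds many transcripts, that of the circadian regulator Clock among them, and body temperature rhythms drive its daily rhythm. Both genes also respond to stresses other than cold.

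Retinas came from dark-reared C57BL/6J mice at 8 weeks of age, either wild type (WT) or with the rd10 genotype, a Pde6b mutation that kills rods and later cones. The rd10-TMB mice ate chow with tamsulosin, metoprolol and bromocriptine, which block the alpha-1 and beta-1 adrenergic receptors and activate D2-like dopamine receptors, while rd10-vehicle and WT mice ate the same chow without drugs. Each group is 1 droplet single-cell library from pooled retinas, labelled as 1 retina from each of 4 mice, with both sexes in the WT pool and females in both rd10 pools. The study's methods give fewer mice for the rd10 pools than the labels do. The question is how these transcripts stood in the diseased retina and under the drugs, cell class by cell class. With 1 library per group, mice, preparation and condition cannot be told apart, and the 95% intervals below are exact intervals that cover counting error only.

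The libraries held 4478 WT, 5952 rd10-vehicle and 4812 rd10-TMB cells with medians of 3509.5, 4811.5 and 4772.5 UMIs per cell, and 25 of 15217 barcodes occurred in more than 1 library. The 21 deposited clusters were given a cell type name only where at least 3 listed markers stood out; Müller glia (MG)-like cells raised 10 of 10 markers, and clusters 6, 7 and 10 stay unnamed. There were 11 classes with at least 50 cells in every library. The summed level of 16 immediate-early genes, which dissociation and stress induce, was 8330 CPM (counts per 1000000, the UMIs of a gene or list per 1000000 UMIs of the class and library) in all WT cells against 25973 in rd10-vehicle and 23789 in rd10-TMB cells; its part in the results below was not tested.

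The promoter letters of Cirbp are shown because cooling acts on this gene partly through an 8-letter element known as the mild cold responsive element. RefSeq sequence on mm10 upstream of a Cirbp start site, chr10:80167589-80167777 on the plus strand, runs from 250 to 62 bases before that start and lies in an intron of the longest annotated transcript. Capitals mark the element TCCCCGCC:
Cirbp: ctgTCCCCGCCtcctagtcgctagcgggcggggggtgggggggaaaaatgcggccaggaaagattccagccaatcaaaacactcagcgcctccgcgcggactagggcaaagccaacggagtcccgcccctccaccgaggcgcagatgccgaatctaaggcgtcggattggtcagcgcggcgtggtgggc
On either strand, 5.38% of 32851 promoter windows held TCCCCGCC. RefSeq gave 2 Cirbp windows, of which the other, not shown, held no TCCCCGCC. The Cirbp stretch also held 2 GC boxes (GGGCGG, found in 35.7% of windows), while the E-box CACGTG (7.15% of windows) and the heat shock element core GAANNTTC (7.86%) had no match in the Cirbp windows. A match is a match of letters only.

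Across the classes with at least 50 cells in every library, the genes had different orders. Among these classes in WT, Rbm3 was highest in endothelial-like cells, at 238 CPM. Amacrine-like cells (175), cluster 10 (165), cone-like (154) and MG-like cells (152) followed. Cluster 6 (125), rod-like (109), OFF cone bipolar-like (109), ON cone bipolar-like (93.2) and rod bipolar cell (RBC)-like cells (90.6) came next. Of these classes, cluster 7 was lowest at 73.5. Counting intervals of neighbours in this order overlapped except between endothelial-like and amacrine-like cells. Cirbp had another order: bipolar-like and amacrine-like cells and clusters 6, 7 and 10 were highest, from 472 in cluster 10 to 388 in ON cone bipolar-like cells, followed by rod-like (312), MG-like (239), cone-like (197) and endothelial-like cells (120). Neighbouring Cirbp intervals overlapped within that first group and did not overlap from ON cone bipolar-like cells downward.

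**Figure D1:**
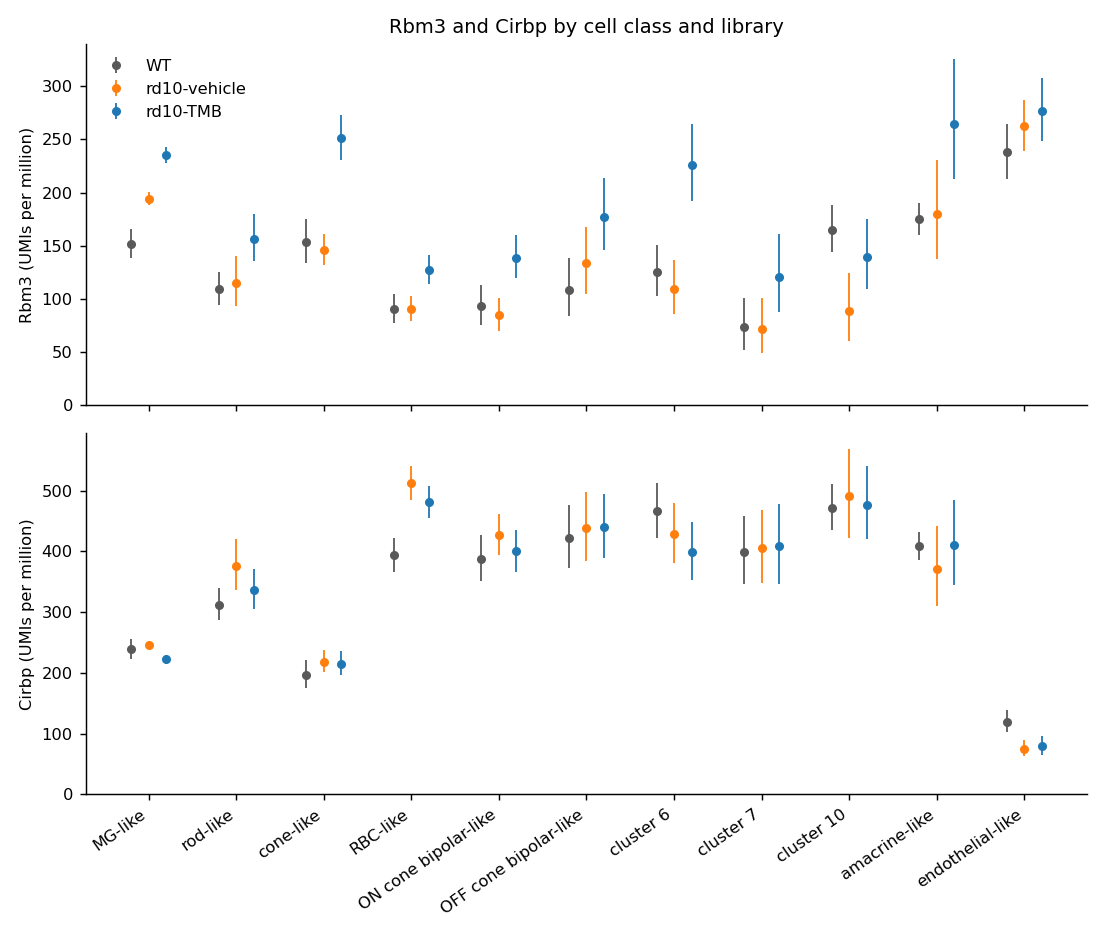
Levels of Rbm3 (top) and Cirbp (bottom) in CPM for each cell class, with 1 point per library and bars for exact Poisson 95% counting intervals. Rbm3 points of rd10-TMB sit above those of rd10-vehicle in all 11 classes, while Cirbp points mostly overlap between libraries and separate the classes.

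Small classes extended these ranges. Microglia-like cells, the resident immune cells, had 369 (306 to 442) Rbm3 CPM in 52 rd10-vehicle cells and 435.5 (355 to 529) in 30 rd10-TMB cells, against Cirbp levels of 62.0 and 77.6. In 37 WT retinal ganglion cell-like cells Rbm3 was 349.5 (306 to 397) and Cirbp 269 (231 to 311). Astrocyte-like cells had 210 Rbm3 CPM in 20 WT cells, 222 in 88 rd10-vehicle cells and 289 in 33 rd10-TMB cells.

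Between the rd10 libraries, Rbm3 was higher with TMB in 11 of 11 classes, by a median log2 ratio of 0.55, and 9 of the 11 counting intervals lay above 0. These libraries came from the same genotype and sex. Median depth was higher in rd10-TMB in 9 of 11 classes, at 0.938 to 1.26 times that of rd10-vehicle, and summed rod markers were higher in 11 of 11, by 1.07 to 3.27 times; their part in the result was not tested. With every cell thinned to 1000 UMIs, all 11 ratios stayed above 0, but only those of rod-like cells, MG-like cells and cluster 6 had an interval above 0. Among these classes, 3 exceeded 1.5-fold with enough counts to judge (at least 200 UMIs over both libraries): ON cone bipolar-like cells, where 0.499% of genes were that much higher, cone-like cells (0.191%) and cluster 6 (0.473%). The classes share their libraries and are not replicates. For this and the later counts of classes, the share of all genes higher in as many classes is not given here.

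In cone-like cells, Rbm3 was 154 (134 to 175) CPM in WT, 146 (131 to 161) with vehicle and 250.8 (230 to 273) with TMB, from 219, 374 and 545 UMIs in 278, 542 and 412 cells. The rd10-TMB interval stood clear of both others, which overlapped. The log2 ratio over rd10-vehicle was 0.78 (0.59 to 0.98), or 1.72-fold, and only 3 of 3673 genes were at or above it. The other 2, named after their values were seen, were Kdm7a at 0.79 and Diras2 at 0.81. Thinning every cell to 1000 UMIs lowered the cone-like ratio to 0.44 (-0.02 to 0.89), which held 0 and was no longer past 1.5-fold.

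In cluster 6 the Rbm3 level was 125, 109 and 226 CPM in WT, rd10-vehicle and rd10-TMB, so only the rd10-TMB library stood apart. The log2 ratio of rd10-TMB over rd10-vehicle was 1.04 (0.64 to 1.47), or 2.06-fold. This cluster differed in makeup from WT: its summed amacrine markers were 2075 CPM in WT against 163 and 128 in rd10-vehicle and rd10-TMB, and their part in the result was not tested. ON cone bipolar-like cells had 93.2, 84.6 and 139 Rbm3 CPM, a log2 ratio of 0.71 (0.37 to 1.06) between the rd10 libraries that 8 of 2607 genes reached. Thinning lowered that ratio to 0.21 (-0.43 to 0.83), which held 0 and was no longer past 1.5-fold.

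RBC-like cells, which receive rod input, had 90.6 Rbm3 CPM in WT, 90.2 with vehicle and 127 with TMB. Their ratio of rd10-TMB over rd10-vehicle was 0.49 (0.25 to 0.74), at or above which lay 0.542% of 4240 genes. In rod-like cells the levels were 109, 115 and 157, with a ratio of 0.44 (0.09 to 0.81). With cells of at least 1000 detected genes alone, the rod-like ratio was lower, at 0.16. Haemoglobin markers summed to 0, 1.91 and 1425 CPM in RBC-like cells and to 3.34, 1.16 and 182 in rod-like cells, and rod markers in RBC-like cells to 884, 499 and 837, in the same order of libraries; their part in the result was not tested. In both classes WT and rd10-vehicle were close and rd10-TMB was the higher library. Cluster 7 (0.73), cluster 10 (0.63) and amacrine-like cells (0.55) also had intervals above 0, while those of OFF cone bipolar-like (0.40, -0.03 to 0.85) and endothelial-like cells (0.08, -0.13 to 0.28) held 0.

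MG-like cells carried most Rbm3 counts of the rd10 libraries, with 4312 of 6708 UMIs (64.3%) in rd10-vehicle and 3951 of 6403 (61.7%) in rd10-TMB, against 17.5% in WT. These shares lay near the MG-like shares of all UMIs, which were 59.99, 57.5 and 17.6% in the same order. Müller glia are the radial glia that support retinal neurons and react to photoreceptor loss, and their share of cells was 11.8, 41.9 and 36.3%. Rbm3 in MG-like cells was 152 (139 to 165) CPM in WT, 194 (188 to 200) with vehicle and 235.5 (228 to 243) with TMB. None of these intervals overlapped. The log2 ratio was 0.36 (0.22 to 0.49) for rd10-vehicle over WT and 0.28 (0.22 to 0.34) for rd10-TMB over rd10-vehicle, and 12.5% and 3.51% of genes lay at or above these values. The summed immediate-early genes in MG-like cells were 22699, 33950 and 33704 CPM, and haemoglobin markers 0.602, 248 and 1.01, in the order WT, rd10-vehicle and rd10-TMB; their part in the result was not tested.

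**Figure D2:**
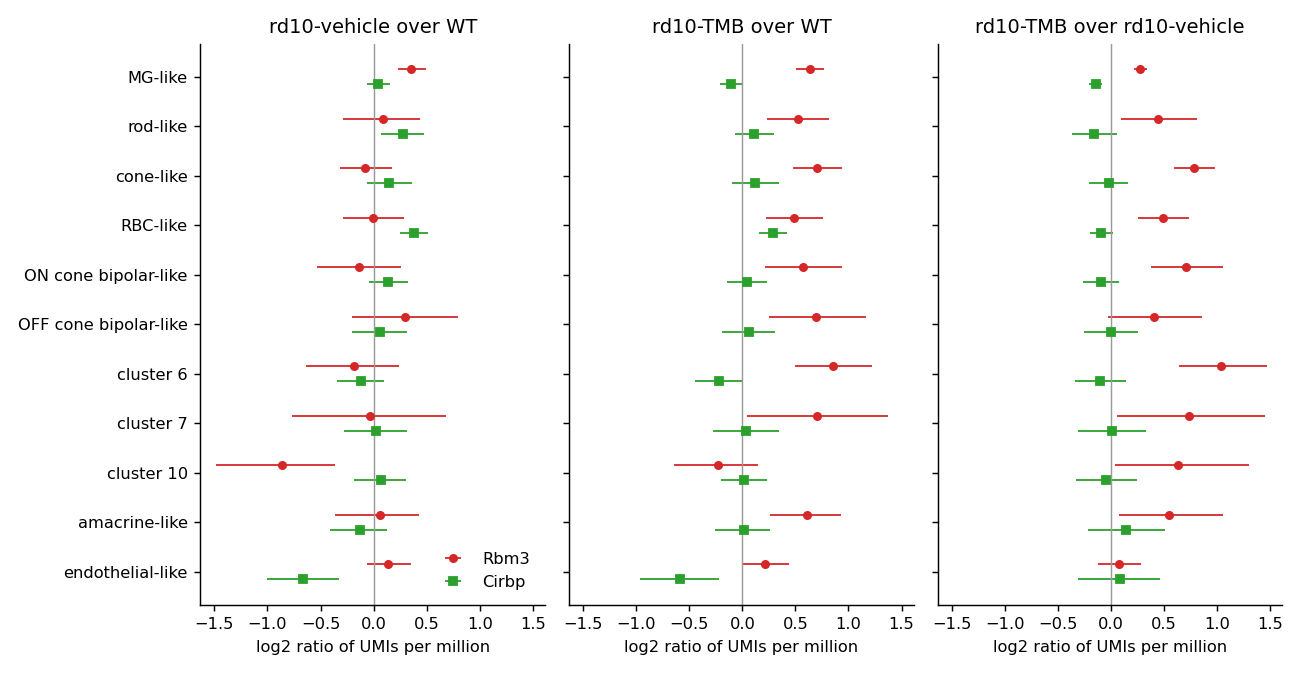
Log2 ratios of Rbm3 and Cirbp in each cell class for the 3 pairs of libraries, with bars for exact conditional 95% counting intervals and a line at 0. For rd10-TMB over rd10-vehicle all 11 Rbm3 points lie right of 0, between 0.08 and 1.04, and the Cirbp points lie between -0.16 and 0.14.

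Within MG-like cells, the difference between rd10 libraries was seen at every depth. Cells were split at 7425 and 9755 UMIs into 3 groups of like size, and Rbm3 in rd10-vehicle was 171, 184 and 213 CPM from the shallowest to the deepest group against 209, 226 and 245 in rd10-TMB. Ratios were 0.29, 0.30 and 0.20. Against WT, with 356 of 530 WT cells in the shallowest group, the rd10-vehicle ratio there was 0.18 (-0.03 to 0.39), which held 0, and in the others 0.33 and 0.32. The rd10-TMB ratio over WT was 0.47, 0.63 and 0.53, past 1.5-fold in the middle group alone. MG-like cells with at least 1 UMI of Lcn2, a stress-induced lipocalin, numbered 9 in WT, 653 with vehicle and 300 with TMB. Rbm3 was 231 and 285 CPM in the Lcn2-positive cells of the rd10 libraries and 175 and 220 in the others. Cells with an Lcn2 UMI were also deeper, with medians of 10153 and 11722 UMIs against 8175 and 9064.5, and the part of depth in that difference was not tested. The ratio of rd10-TMB over rd10-vehicle was 0.30 (0.19 to 0.41) with an Lcn2 UMI and 0.32 (0.25 to 0.40) without.

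With every MG-like cell thinned to 1000 UMIs, which left out 3, 16 and 21 shallower cells, 13.9% (11.02 to 17.1) of WT, 17.5% (16.01 to 19.04) of rd10-vehicle and 20.1% (18.2 to 22.1) of rd10-TMB cells had an Rbm3 UMI. The Cirbp shares of 20.5, 22.2 and 19.3% had no such order. Unthinned, with median depths of 6300, 8593.5 and 9454.5 UMIs, the shares were 56.2, 73.5 and 80.7% for Rbm3 and 72.6, 83.8 and 82.1% for Cirbp. No retinal class is known to lack either gene, so no background share from free RNA can be given. Both genes were detected together in 2.85, 3.96 and 3.36% of thinned cells, against 2.84, 3.88 and 3.89% for the product of their shares.

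Against WT, the untreated disease library differed less and not in 1 direction. Rbm3 was higher in rd10-vehicle in 5 of 11 classes, with a median log2 ratio of -0.01, and 9 counting intervals held 0. MG-like cells were the only class with an interval above 0. Cluster 10 was the only one below it, at -0.86 (-1.48 to -0.36), from 165 to 88.4 CPM. It was also the only class past 1.5-fold, where 9.9% of genes were that much lower. The amacrine markers of cluster 10 summed to 1766 in WT, 331 with vehicle and 876 with TMB, so its makeup moved too, and the part of that in the result was not tested.

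Against the same WT library, rd10-TMB had higher Rbm3 in 10 of 11 classes, with a median log2 ratio of 0.61 and 9 intervals above 0. After thinning 3 intervals lay above 0, and those of RBC-like (0.25, -0.32 to 0.86) and ON cone bipolar-like cells (0.24, -0.44 to 0.96) were among the ones that then held 0. The exception in direction was cluster 10 (-0.23, -0.65 to 0.14). MG-like cells (0.63, 0.50 to 0.77), cone-like cells (0.70, 0.48 to 0.94), amacrine-like cells (0.61, 0.26 to 0.93) and cluster 6 (0.85, 0.50 to 1.22) passed 1.5-fold with enough counts. The shares of all genes that much higher were 4.75, 1.41, 5.53 and 2.54% in those classes. The amacrine-like value rests on 83 cells, of which 1 held 12 of the 89 UMIs, and as a mean over cells it was 0.14 against WT and 0.06 against rd10-vehicle. The cone-like value after thinning was 0.38 (-0.15 to 0.95). Neither then passed 1.5-fold. Both comparisons with WT share the same WT cells.

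Rbm3 is X-linked, and only the WT pool held males. The WT library was split by UMIs of Xist, the RNA that coats the inactive X chromosome of females, and of Y-linked genes: 1750 cells had Xist alone, 1418 a Y-linked gene alone, 1089 neither and 221 both. In the rd10 libraries 0 vehicle and 1 TMB cell had a Y-linked UMI. Over all of these cells Rbm3 was 126 (118 to 134) CPM in Xist cells and 182 (172 to 192) in Y-linked cells. The Xist cells were thus the lower, with a log2 ratio of -0.53 (-0.65 to -0.41). In MG-like cells the levels were 118 (102 to 136) and 188 (163 to 216) at median depths of 6580 and 6645 UMIs. That ratio of -0.68 (-0.97 to -0.38) was among the 3 lowest of 2179 genes, beside Ass1 (-0.68) and 2900052N01Rik (-0.79), both named after their values were seen. The median over all those genes was -0.01.

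**Figure D3:**
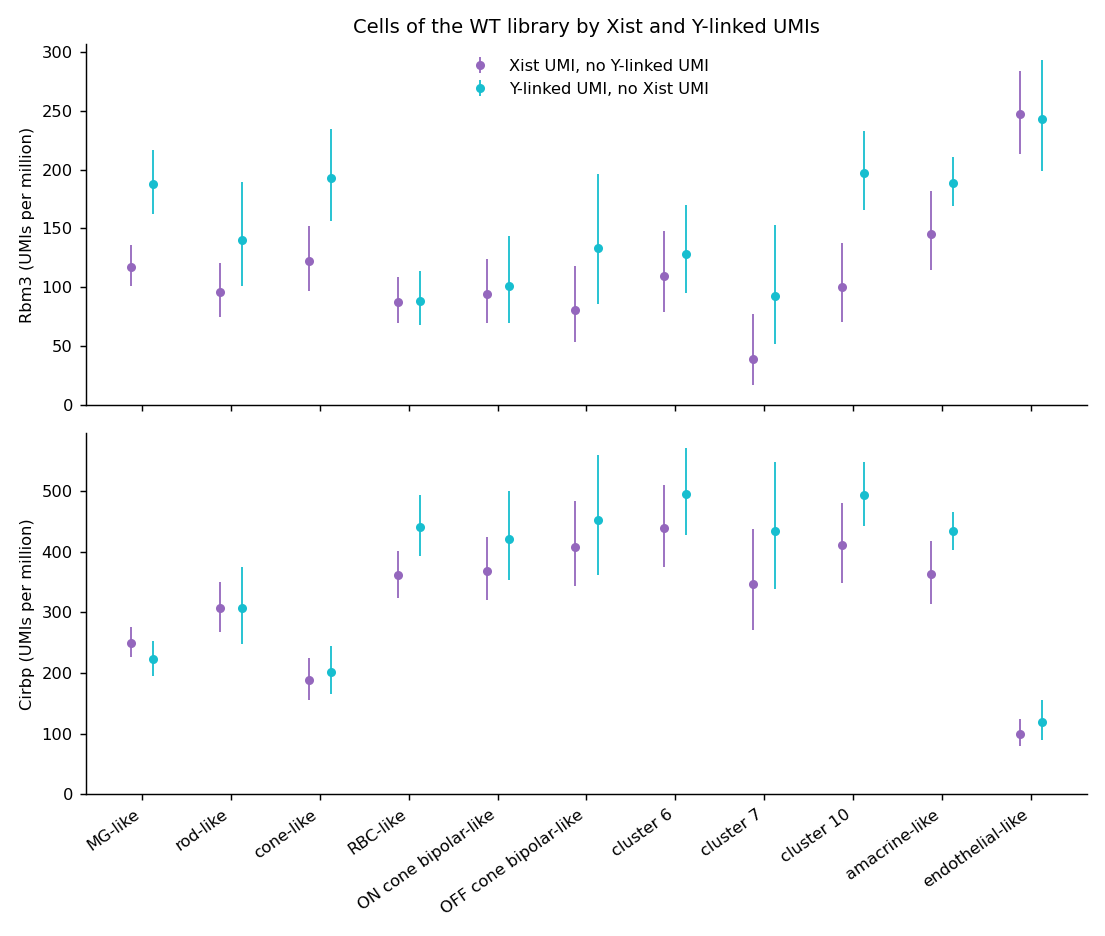
Rbm3 (top) and Cirbp (bottom) in CPM in WT cells with an Xist UMI alone and with a Y-linked UMI alone, by class, with exact Poisson 95% counting intervals. Rbm3 is lower in the Xist cells in 10 of 11 classes, with the MG-like intervals (102 to 136 and 163 to 216) apart.

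Rbm3 was lower in Xist cells in 10 of 11 classes, with 4 intervals below 0 and a median of -0.56. Cone-like cells had 122 against 193 CPM (-0.65, -1.10 to -0.22) and cluster 10 had a ratio of -0.95 (-1.54 to -0.45). RBC-like (-0.02) and endothelial-like cells (0.02) were near 0. Cirbp, which is autosomal, was also lower in Xist cells in 10 of 11 classes, though with a median of -0.20, 2 intervals below 0 and a value of 0.16 (-0.07 to 0.41) in MG-like cells. The mice of the WT pool differ in more than sex, so the animal and its sex cannot be told apart. Immediate-early genes summed to 23951 and 23071 CPM in the MG-like Xist and Y-linked cells, which were nearly level, but to 10772 and 7130 over all cells. Xist and Y-linked cells also differed in class mix, with 483 against 192 rod-like, 245 against 157 MG-like and 139 against 363 amacrine-like cells. The part of that mix in the all-cell values, that of Rbm3 included, was not tested.

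With the Xist cells of WT alone as the reference, the Rbm3 ratio over WT lay farther from 0 in 8 of 11 classes for rd10-vehicle and in 9 of 11 for rd10-TMB. In MG-like cells the Rbm3 ratio became 0.72 (0.51 to 0.94) for rd10-vehicle and 0.99 (0.79 to 1.22) for rd10-TMB. In cone-like cells it became 0.24 (-0.10 to 0.62) and 1.02 (0.70 to 1.40). The lower Rbm3 of cluster 10 in rd10-vehicle became -0.17 (-0.91 to 0.54), an interval that holds 0. Rbm3 was then higher than WT in 8 of 11 classes in rd10-vehicle and in 11 of 11 in rd10-TMB. No marker separated the mice within the female rd10 pools, so the spread between those mice was not measured.

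Cirbp had its clearest differences against WT, where 3 intervals lay clear of 0 in rd10-vehicle and 3 in rd10-TMB. Between the rd10 libraries it was higher in rd10-TMB in 4 of 11 classes, with a median log2 ratio of -0.05, and 10 intervals held 0. The MG-like interval was the exception: Cirbp was 239 CPM in WT, 246 with vehicle and 222 with TMB, with a ratio of -0.14 (-0.20 to -0.08) between the rd10 libraries. This was an ordinary value for these cells, since 20.2% of 10566 genes were at or below it and 12.3% of genes had an interval below 0. In the middle depth group of MG-like cells it was -0.0082 (-0.12 to 0.099), which held 0. Against WT, Cirbp in MG-like cells was 0.04 (-0.06 to 0.15) in rd10-vehicle and -0.10 (-0.21 to 0.01) in rd10-TMB.

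In RBC-like cells Cirbp was 394 (367 to 423) CPM in WT, 512 (485 to 540) with vehicle and 481 (455 to 508) with TMB. The rd10 libraries were both above WT and overlapped each other. Ratios over WT were 0.38 (0.25 to 0.51), which 4.46% of 3792 genes reached, and 0.29 (0.16 to 0.42). With the Xist cells of WT as reference they were 0.50 (0.33 to 0.68) and 0.41. Rod-like cells had 312, 376 and 337 Cirbp CPM, with a ratio of 0.27 (0.07 to 0.47) for rd10-vehicle over WT, which 15.8% of 2318 genes reached.

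Endothelial-like cells went the other way: Cirbp was 120 (102 to 139) CPM in WT, 75.4 (63.2 to 89.2) with vehicle and 79.5 (64.7 to 96.7) with TMB. Both rd10 intervals lay below that of WT. The log2 ratios were -0.66 (-1.004 to -0.33) and -0.58 (-0.96 to -0.22). For rd10-vehicle this was 1.58-fold lower and the only Cirbp value past 1.5-fold with enough counts, where 5.97% of genes were that much lower. In the same cells Rbm3 was 238, 262 and 277 CPM, with intervals that overlapped. Summed haemoglobin markers of these cells were 777 in WT against 3334 and 2812 in the rd10 libraries and immediate-early genes 27236 against 45393 and 45844; their part in the result was not tested. Against the Xist cells of WT the ratios were -0.42 (-0.82 to 0.01) and -0.34 (-0.77 to 0.11), which held 0. After thinning the ratio for rd10-vehicle was 0.014 (-0.98 to 1.05), and with cells of at most 10% mitochondrial UMIs that for rd10-TMB was 0.0028, so neither call held under every setting.

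Over all cells without regard to class, Cirbp was 324 CPM in WT, 268 with vehicle and 268 with TMB, a log2 ratio of -0.28 in both comparisons, although 8 of 11 classes were higher in each. MG-like cells, which are low in Cirbp, gave 17.6% of WT UMIs but 59.99 and 57.5% of those in the rd10 libraries. The median over all genes was -0.20 in both comparisons. Rbm3 over all cells was 153, 181 and 219.

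The count of Rbm3 UMIs per Cirbp UMI uses no scaling by depth, and it was compared only across classes and libraries. In MG-like cells it was 0.635 (0.567 to 0.711) in WT, 0.790 (0.759 to 0.823) with vehicle and 1.06 (1.01 to 1.11) with TMB. In cone-like cells it was 0.779, 0.668 and 1.17, and in RBC-like cells 0.230, 0.176 and 0.264. The highest of the libraries was thus rd10-TMB in each of these classes, but rd10-vehicle was above WT in MG-like cells and below it in the others. In cone-like and RBC-like cells the intervals of WT and rd10-vehicle overlapped, as did those of WT and rd10-TMB in RBC-like cells. Endothelial-like cells had 1.99, 3.48 and 3.48, and microglia-like cells 5.95 and 5.61 in rd10-vehicle and rd10-TMB.

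**Figure D4:**
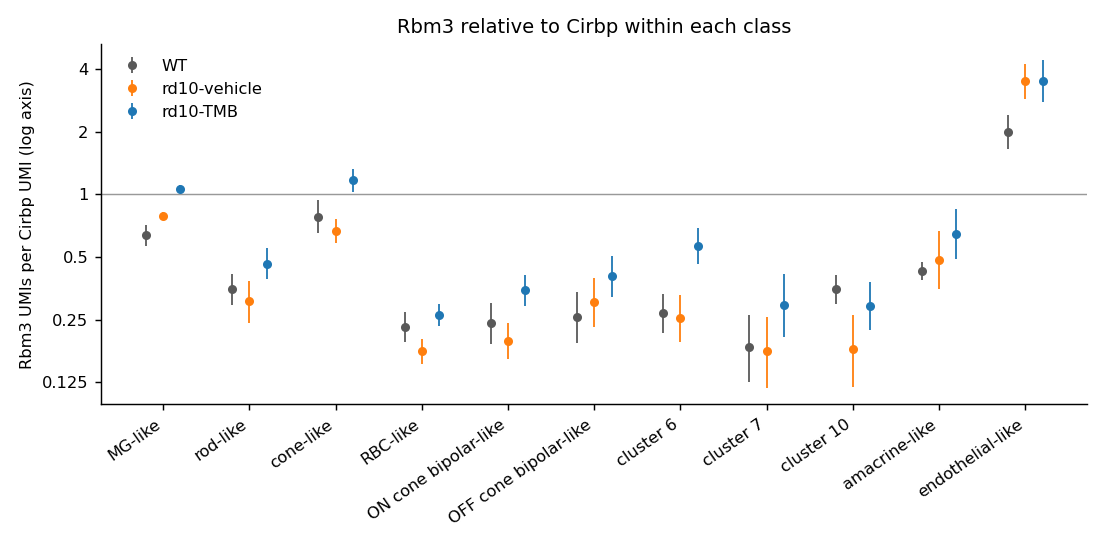
Rbm3 UMIs per Cirbp UMI in each class and library on a log axis, with exact conditional 95% intervals and a line at 1. Among the classes shown, endothelial-like cells are highest in each library and MG-like and cone-like cells come next. Bipolar-like, amacrine-like and rod-like cells and clusters 6, 7 and 10 are lower. MG-like and cone-like points are highest in the rd10-TMB library.

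Gene lists around the pair were read in MG-like cells by counts of members with at least 20 UMIs, beside all genes, of which 42.6% were higher in rd10-vehicle than in WT (median log2 ratio -0.07) and 44.9% above rd10-vehicle in rd10-TMB (median -0.02). Of 22 hnRNP and poly(rC)-binding proteins, which package nuclear RNA, 10 were above WT in rd10-vehicle and 14 above rd10-vehicle in rd10-TMB, with medians of -0.07 and 0.02. Hnrnph1, whose product takes part in the temperature-dependent splicing of Rbm3, was -0.27 (-0.40 to -0.13) and 0.08 (-0.00 to 0.16). Of 29 other RBM-named proteins, 11 and 15 were higher, with medians of -0.11 and 0.00. The 3 highest between the rd10 libraries were Rbm41 (0.39), Rbm26 (0.16) and Rbm4b (0.14), and the 3 lowest Rbm22 (-0.45), Rbm38 (-0.23) and Rbm45 (-0.20).

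Splicing factors of the SR family and the CLK kinases that phosphorylate them were higher in 6 of 16 and 8 of 16 cases, with medians of -0.10 and -0.02. The 5 measured proteins with a cold shock domain, a bacterial-type fold that RBM3 and CIRBP lack, were all higher in rd10-vehicle than in WT, by a median of 0.24, with Ybx3 at 0.30 and Ybx1 at 0.24. All 5 were lower with TMB than with vehicle, by a median of -0.07 with intervals that held 0.

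Heat shock genes, which warming and protein damage induce, were higher in rd10-vehicle than in WT in 10 of 14 cases, by a median of 0.13. The small chaperone Hspb1 was at 1.97 (36.4 to 144 CPM), the co-chaperone Dnajb1 at 1.16 and Bag3 at 0.68. With TMB against vehicle, 5 were higher and 9 lower in rd10-TMB, by a median of -0.05, with Hspa1a at 0.21 and Hspb1 at -0.24. All 16 immediate-early genes were higher in rd10-vehicle than in WT, with a median of 0.63, and 6 of 16 were above rd10-vehicle in rd10-TMB (median -0.01).

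Of 6 measured partners of the pair, 3 were above WT in rd10-vehicle (median -0.010) and 1 above rd10-vehicle in rd10-TMB (median -0.22). Rtn3 was 960 CPM in WT, 594 with vehicle and 643 with TMB. Its ratio was -0.69 (-0.75 to -0.64) for rd10-vehicle over WT, while Rbm3 was higher there, and 0.11 (0.08 to 0.15) for rd10-TMB over rd10-vehicle. Ntrk2, which encodes TrkB, was low throughout, at 10.5, 5.2 and 3.6 CPM, with a ratio of -1.05 (-1.58 to -0.44) for rd10-vehicle over WT. Bdnf, the TrkB ligand, was 1.81 (1.32 to 2.45) in the same comparison and -0.29 (-0.47 to -0.12) between the rd10 libraries.

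Clock genes had the medians farthest from 0 of all lists between the rd10 libraries and against WT. Of 16 members, 11 were lower in rd10-vehicle than in WT, with a median of -0.79 and 10 intervals below 0, as 17.4% of all genes had. Between the rd10 libraries 11 were higher in rd10-TMB, with a median of 0.41 and all 11 of those intervals above 0, against 8.77% of all genes. The repressor Ciart was 150, 20.8 and 69.2 CPM in WT, rd10-vehicle and rd10-TMB, Per2 was 15.1, 5.2 and 14.7, and the output regulator Dbp was 587, 298 and 514. These genes were thus nearer to WT in rd10-TMB than in rd10-vehicle. Clock, whose RNA CIRBP binds, ran opposite, at 0.45 (0.24 to 0.67) and then -0.63 (-0.75 to -0.51), and so did its partner Arntl, at 0.88 and then -0.77. The hour of day at which each retina was taken is not given in the sources used here, and its part in the results for Rbm3 and Cirbp was not tested.

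**Figure D5:**
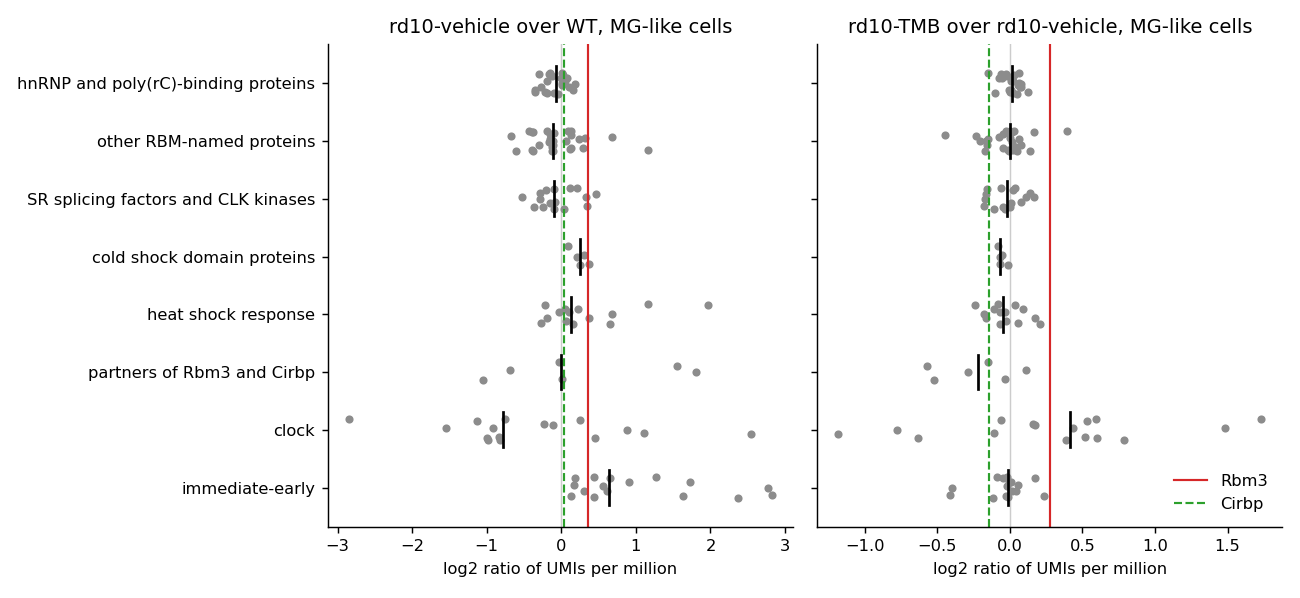
Log2 ratios in MG-like cells for the genes of each list, with 1 small point per gene the list median as a black bar, and vertical lines at the values of Rbm3 (solid) and Cirbp (dashed), for rd10-vehicle over WT and rd10-TMB over rd10-vehicle. Clock genes spread widest, with medians of -0.79 and 0.41, while the hnRNP, RBM and SR lists have medians between -0.11 and 0.02.

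In cone-like cells all genes had a median of 0.01 between the rd10 libraries, with 51.7% higher. The hnRNP list had 13 of 22 higher with a median of 0.04, the SR list 13 of 16 with 0.05 and the heat shock list 10 of 13 with 0.17. Immediate-early genes were lower in rd10-TMB in 13 of 16 cases, by a median of -0.38, and their sums were 4314, 9082 and 6989 CPM in WT, rd10-vehicle and rd10-TMB.

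Genes with the most similar pattern were taken from 10298 genes by Pearson r of log2 levels, centred within class, over the 33 sums of 11 classes in 3 libraries. These sums share libraries and depth, so r is a description. Genes on chromosomes X and Y were counted among the 10298 but were left out of the naming, although Rbm3 is itself X-linked. The genes named below are thus the nearest of the remaining genes alone. Nearest to Rbm3 were the ribosomal protein gene Rps26 (0.85), the cytochrome oxidase subunit gene Cox5b (0.84), the ribosomal protein gene Rpl31 (0.79), the elongin gene Elob (0.78) and the ATP synthase subunit gene Atp5j (0.77). Between the rd10 libraries these 5 were higher in rd10-TMB by 0.14 to 0.26 in MG-like cells and by 0.19 to 0.38 in cone-like cells, less than Rbm3. Nearest to Cirbp were the granule protein gene Chga (0.82), the semaphorin gene Sema4d (0.81), the secretory chaperone gene Scg5 (0.79), Prelid3a (0.79) and Gpr162 (0.79). Rbm3 and Cirbp themselves had an r of -0.11, and of -0.62 without centring, where the classes' own levels enter.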

How the data were processed

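Dissociated retinas were profiled as droplet single-cell RNA-seq, 1 pooled library per group. Per the submitters' processing notes, reads were processed with Cell Ranger 6.0.1 on mm10 and with Seurat 3.2.2, and the study's methods state that doublets were removed with Scrublet before deposit. The authors deposited natural log values, ln(1 + UMIs per 10000), with the counts per cell, from which whole UMI counts were recovered for 15242 of 15242 cells (tolerance 0.001). All cells had at least 500 detected genes.

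Class sums of UMIs in each library were scaled to 1000000. Ratios used a pseudocount of 1 UMI. Sums had exact Poisson, ratios exact conditional binomial and shares exact Clopper-Pearson 95% intervals. Code was tested on simulated data. Python 3.11.15, NumPy 2.4.6, SciPy 1.17.1, pandas 2.3.3 and matplotlib 3.10.9 were used. Named genes were Rbm3 and Cirbp, the 3 highest and lowest of a list or those tied to the pair, and the 5 most similar. The members and lists were chosen with earlier results of these data known. Counting of reads shared with near-identical copies is not given in the sources used here; Rbm3 shares 60-base stretches with 4 pseudogene-like loci and Cirbp with 0.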

Additional observations from a re-analysis of the deposited data

Results flagged for a closer look

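Some effects went opposite ways in different classes of the same libraries, each with a counting interval clear of 0; the differences between classes themselves were not tested, and with 1 library per group they have no replicate check. For rd10-vehicle over WT, Rbm3 was 0.36 in MG-like cells and -0.86 in cluster 10. For the same pair of libraries, Cirbp was 0.27 in rod-like and 0.38 in RBC-like cells but -0.66 in endothelial-like cells. For rd10-TMB over WT, Cirbp was 0.29 in RBC-like cells but -0.22 in cluster 6 and -0.58 in endothelial-like cells. Against the Xist cells of WT alone, cluster 10 (-0.17) for Rbm3, and endothelial-like cells in both comparisons (-0.42 and -0.34) and cluster 6 (-0.14, -0.42 to 0.15) for Cirbp, had intervals that held 0.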

How the results depend on the processing

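No paired analysis was possible because each group is 1 library, and no replicate could be left out. Counting only alternatives that changed the value, Rbm3 in MG-like cells kept its sign in 13 of 13 in each comparison with WT and in 12 of 12 between the rd10 libraries. Cirbp did so in 12 of 12 between the rd10 libraries and in 11 of 13 in each comparison with WT, where its main intervals held 0 but those against Xist cells (rd10-TMB, -0.17, -0.32 to -0.02) and in the lowest depth group (rd10-vehicle) did not. In single classes signs changed too: after thinning, Rbm3 in endothelial-like cells was -0.28 for rd10-TMB over WT and Cirbp there was -1.43 (-3.69 to -0.10) for rd10-TMB over rd10-vehicle. Against Xist cells of WT alone, Rbm3 in MG-like cells was 0.72 (rd10-vehicle) and 0.99 (rd10-TMB), and Rbm3 was higher in rd10-vehicle in 8 classes. Splits of MG-like cells by depth or Lcn2 and counts without clusters 6 and 10 were chosen after seeing the data. In the lowest depth group Rbm3 was 0.18 (-0.03 to 0.39, which held 0) for rd10-vehicle and 0.47 for rd10-TMB over WT; in the highest it was 0.20 for rd10-TMB over rd10-vehicle. Cirbp was 0.27 (0.11 to 0.44) in the lowest and -0.065 in the highest for rd10-vehicle over WT, 0.049 in the lowest for rd10-TMB over WT, and for rd10-TMB over rd10-vehicle -0.22 in the lowest, -0.0082 in the middle and -0.21 after thinning. Between the rd10 libraries Cirbp was higher with TMB in 2 classes without the 5% of cells with most UMIs and in 7 after thinning. Thinning left 3 of 11 Rbm3 intervals above 0 between the rd10 libraries; the counts were then lower. Without centring, 0 of 5 genes nearest to Rbm3 and 0 of 5 nearest to Cirbp were shared with the main choice; with a mean of at least 50 UMIs, 3 of the Cirbp genes were. Genes higher in rd10-TMB than in WT in MG-like cells were 2.18% past 2-fold and 7.88% from 20 UMIs up; in cone-like cells over rd10-vehicle they were 0 and 3.41%. Shares of MG-like cells with a UMI, unthinned, were 56.2, 73.5 and 80.7% for Rbm3 and 72.6, 83.8 and 82.1% for Cirbp. For the other settings the cause was not tested. The precision of each value rests on its UMI count, which is small in the smaller classes.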
